A study of Mus musculus with 7 samples.

Results

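Lpl, Cd36, Fabp3, Fabp4, Vldlr and Lipe encode proteins that bring fatty acids into a cell, carry them inside it or release them from stored fat. Each of these 6 genes has 1 probe on a small array that measured 203 named genes with 223 probes. The members were taken by gene symbol, with earlier results of these data known. The signals were read in the soleus of 7 mice deficient in tenascin-C (Tnc), a matrix glycoprotein that muscle makes when its fibres are loaded or repaired. The mice were of the 129/SV background and served as cage controls. All arrays form 1 group, in which every mouse carries the Tnc deficiency, and no mouse with an intact gene was analysed here. The labels give no age or sex, and the design text calls the samples biological replicates. Replicates are numbered 1 to 7 only to name them. The RNA came from cryosections of the muscle belly, so it holds RNA of vessels and of other cells between the fibres as well. Fewer cells of a type and less RNA per cell cannot be told apart in such samples.

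The soleus is a postural muscle rich in slow oxidative fibres, which burn fatty acids for much of their energy. Lipoprotein lipase frees fatty acids from circulating triglyceride at the capillary wall, and the VLDL receptor binds the triglyceride-rich particles there. CD36 carries the fatty acids across the membrane, and small cytosolic binding proteins take them up inside. Hormone-sensitive lipase works on the opposite side, where it breaks down stored fat, chiefly in adipocytes.

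The promoters of Cd36 and Fabp3 are shown because both genes act on the path of fatty acids into the fibre and their signals are compared below. The windows run from 250 bases before to 50 bases after the RefSeq start, in build GRCm38.p6, and 4 of the 6 genes had a window in the table used. The Cd36 window is chr5:17835847-17836146 on the minus strand and the Fabp3 window is chr4:130308488-130308787 on the plus strand. The Cd36 gene spans 17781690 to 17888959, so its window surrounds a start inside the gene and not the outermost start. Capitals mark matches to AGGTCA, the half-site bound by nuclear receptors such as the PPARs, or to CCAAT, on either strand.
Cd36: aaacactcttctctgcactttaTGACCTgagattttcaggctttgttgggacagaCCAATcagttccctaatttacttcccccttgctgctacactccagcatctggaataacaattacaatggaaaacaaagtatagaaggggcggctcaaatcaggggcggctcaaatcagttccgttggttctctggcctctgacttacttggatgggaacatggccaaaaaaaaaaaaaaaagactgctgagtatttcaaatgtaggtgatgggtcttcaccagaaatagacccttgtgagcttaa
Fabp3: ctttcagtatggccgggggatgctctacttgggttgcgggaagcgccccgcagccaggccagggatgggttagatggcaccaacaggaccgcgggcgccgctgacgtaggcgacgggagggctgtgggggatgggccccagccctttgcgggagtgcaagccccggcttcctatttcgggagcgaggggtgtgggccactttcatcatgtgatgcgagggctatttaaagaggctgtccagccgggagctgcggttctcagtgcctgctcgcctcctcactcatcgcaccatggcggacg
Counted from that internal start, the Cd36 window held AGGTCA on the antisense strand from base -228 and CCAAT on the sense strand from base -195. The Fabp3 window held none of the motifs searched. Of 32851 promoter windows of this length, 16.3% held AGGTCA, 37.4% held CCAAT and 13.6% held TATAAA, on either strand. One of the 2 Vldlr windows held CCAAT and neither Lipe window held any of the 3 motifs. A match is a run of letters and not a binding site. The windows differed in base composition, with 43.0% G and C for Cd36 and 65.0% for Fabp3.

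Signals are given as percent of the summed signal of an array, which leaves out the 28S rRNA probe and 1 unnamed probe. A probe's brightness also depends on its primer and sequence, so signals of different probes do not rank transcript numbers. The floor of an array is its 10th percentile, and a probe is called detected where it exceeds 3 times that level. Replicate 3 stood apart from the other arrays. Its log2 signals over all probes had Pearson's r of 0.248 to 0.412 with the other 6, whose 15 pairs ran from 0.876 to 0.992, the highest that of replicates 1 and 2. Its floor was 0.15% against 0.04% to 0.08% on the others. Mb and Myh7, which mark slow fibres, summed to 0.67% there against 15.2% to 22.0%, and both were detected on each of the other 6 arrays and not in replicate 3. The muscle label is thus borne out on 6 arrays and not in replicate 3. The 28S rRNA probe was not detected in replicate 3 either, at 0.37% and 2.47 times the floor. The other 6 arrays divide by 28S rRNA, with 24.1% to 49.7% in replicates 4 to 7 against 3.48% and 3.79% in replicates 1 and 2. The Tnc probe, at 0.08% to 0.18%, was not detected on any array. The 3 fast myosin probes, none detected in replicate 3, summed to 0.83% there against 3.85% to 8.77%. The 3 fibroblast probes summed to 0.49% against 0.24% to 0.34%, and Il1b, the 1 leukocyte marker with a probe, gave 0.17% against 0.04% to 0.09%. Neither Il1b nor any fibroblast probe was detected on any array, and their higher readings in replicate 3 lay close to its higher floor.

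The question here was which steps of fatty acid handling were seen in this muscle and how they varied between mice. On the 6 arrays other than replicate 3, Lpl, Cd36, Fabp3 and Fabp4 were detected every time, Vldlr on 5 and Lipe on none. That is 4 of 6 genes detected on all of these arrays, beside 17.0% of all 223 probes. No member was detected on all 7 arrays, beside 4.04% of all probes, and none in replicate 3, beside 13.0%. The 6 probes together carried 1.29% of the signal in replicate 3, against 2.54% ± 0.37 on the other arrays (SD, n = 6).

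**Figure D1:**
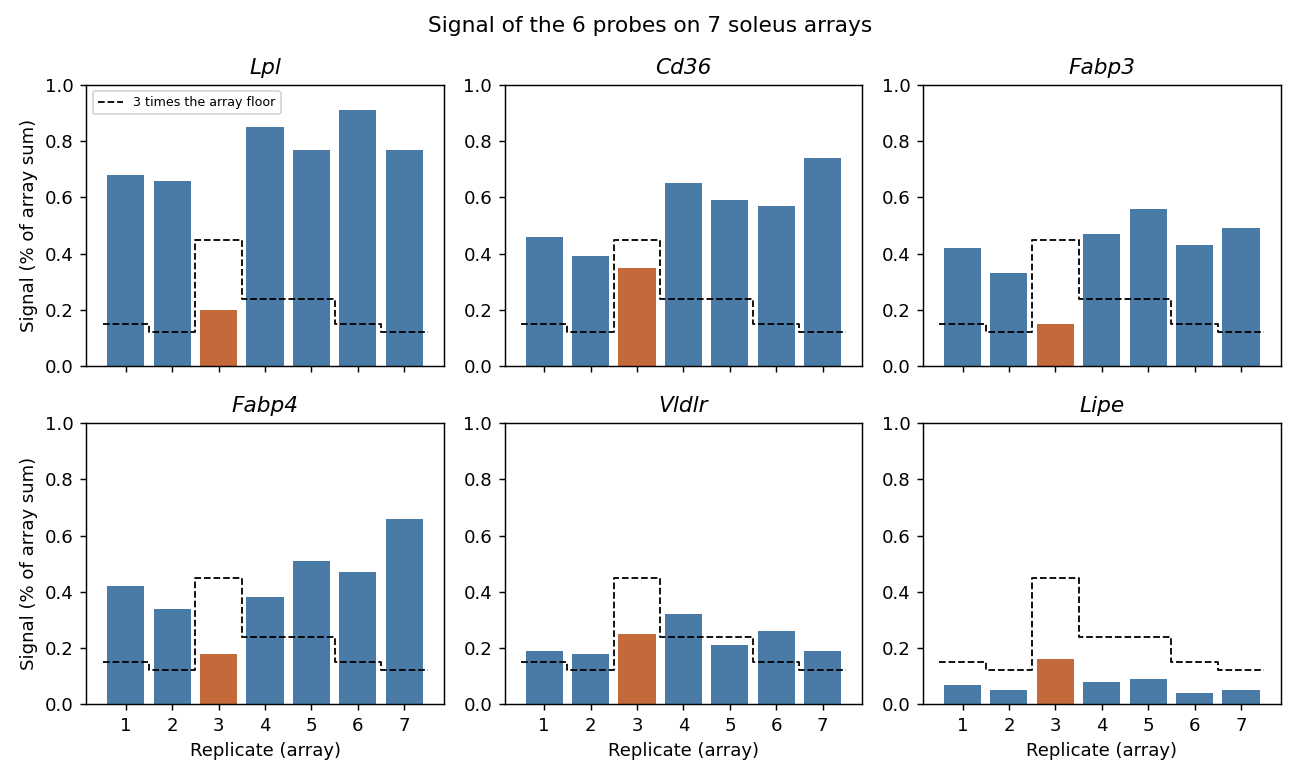
Signal of each probe in percent of the array sum, 1 panel per gene and 1 bar per array, with replicate 3 in orange and a dashed line at 3 times the floor of each array. Lpl, Cd36, Fabp3 and Fabp4 exceed the line on all arrays but replicate 3, Vldlr falls short of it in replicates 3 and 5, and Lipe never reaches it.

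Lpl, the lipase that delivers fatty acids from blood lipoproteins, carried 0.68%, 0.66%, 0.20%, 0.85%, 0.77%, 0.91% and 0.77% in replicates 1 to 7. Replicate 3 was the only low array, and its value lay 1.33 times above the floor, against 9.62 to 19.2 times on the others. The mean was 0.691% ± 0.234 over all arrays (SD, n = 7) and 0.773% ± 0.096 without replicate 3 (SD, n = 6). Among these 6 mice the highest value was 1.38 times the lowest, the narrowest span of the members.

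Vldlr, the receptor for triglyceride-rich lipoproteins, carried 0.19%, 0.18%, 0.25%, 0.32%, 0.21%, 0.26% and 0.19% in replicates 1 to 7. Replicate 4 was highest and replicate 3 lay inside the range of the others. In replicate 5 the signal was 2.62 times the floor and on the remaining arrays other than replicate 3 it was 3.80 to 5.20 times. The mean was 0.229% ± 0.051 (SD, n = 7). In replicate 3 the floor makes up most of the reading, with 0.10% left after it was subtracted, against 0.13% to 0.24% on the others.

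Cd36, the membrane carrier of long-chain fatty acids, carried 0.46%, 0.39%, 0.35%, 0.65%, 0.59%, 0.57% and 0.74% in replicates 1 to 7. Replicate 3 was lowest and replicate 7 highest, and replicates 1 and 2 were below each of replicates 4 to 7. Its mean was 0.536% ± 0.142 (SD, n = 7). In replicate 3 Cd36 was 2.33 times the floor, the highest of the members there.

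Fabp3, the binding protein of heart and skeletal muscle fibres, carried 0.42%, 0.33%, 0.15%, 0.47%, 0.56%, 0.43% and 0.49% in replicates 1 to 7. The reading in replicate 3 equalled the floor of that array, and the others were 5.88 to 12.2 times their floors. The mean was 0.407% ± 0.134 (SD, n = 7), or 0.450% ± 0.077 without replicate 3 (SD, n = 6).

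Fabp4, the binding protein best known from adipocytes and also made by capillary endothelium, carried 0.42%, 0.34%, 0.18%, 0.38%, 0.51%, 0.47% and 0.66% in replicates 1 to 7. Replicate 7 was highest and replicate 3 lowest, at 1.20 times the floor. The mean was 0.423% ± 0.149 (SD, n = 7). Of 8 adipocyte markers listed, only Fabp4 itself and Pparg, the nuclear receptor that drives adipocyte formation, had a probe. Pparg carried 0.15% in replicate 3 and 0.04% to 0.09% on the other arrays, and was detected on none. Of 8 endothelial markers 5 had a probe, and their summed signal was 9.50% in replicate 3, of which Pecam1 made up 8.36%, against 0.45% to 1.27% on the other arrays. None of the 5 was detected on all 6 of those, and no marker of either list was at 0. In replicate 3 Pecam1 and Cdh5 were detected, whereas Kdr and Tek read 1.07 times the floor and Flt1 1.47 times. Fabp4 was lowest on that array but was not detected there. The part of fat cells or vessels in the Fabp4 signal was not tested.

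Lipe, hormone-sensitive lipase, carried 0.07%, 0.05%, 0.16%, 0.08%, 0.09%, 0.04% and 0.05% in replicates 1 to 7. Its signal was 0.80 to 1.40 times the array floor, so it could not be told from background on any array. Replicate 3 gave the highest reading, but that array also had the highest floor, and 0.01% was left after subtraction. Values are recorded in steps of 0.01%, which is a large share of a reading of this size. Of all probes, 62.8% were likewise undetected on all 6 arrays other than replicate 3.

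By rank of brightness among the 223 probes, ties sharing a mean rank, Lpl stood at 93.5 in replicate 3 and at 20 to 23.5 on the other arrays. Fabp3 stood at 205 in replicate 3 against 28 to 37, and Fabp4 at 116.5 against 27 to 45. Cd36 stood at 41 against 23 to 30, Vldlr at 69.5 against 42.5 to 53, and Lipe at 170 lay inside its range of 113.5 to 217.5. On each of the other 6 arrays Cd36 ranked above Fabp3 and Fabp4, whereas the order of Fabp3 and Fabp4 varied between mice.

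**Figure D2:**
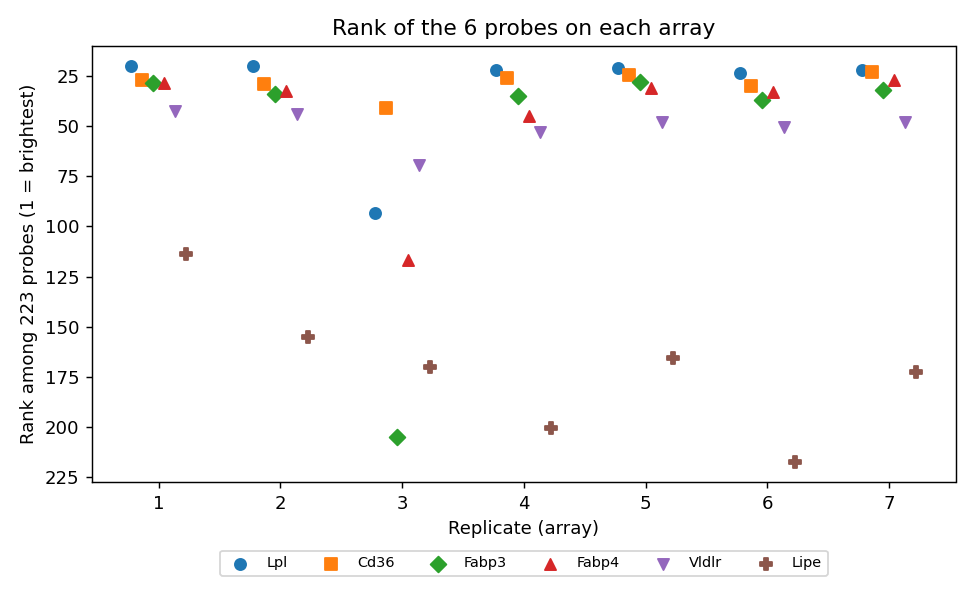
Rank of each probe among the 223 probes of an array, with 1 the brightest at the top, for replicates 1 to 7. Lpl stands at 93.5 in replicate 3 and between 20 and 23.5 on all others, and Lipe lies at 113.5 or lower on every array.

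Lpl in replicate 3 was 0.259 times its mean on the other arrays, Fabp3 0.333 times, Fabp4 0.388 times and Cd36 0.618 times, whereas Vldlr was 1.11 times and Lipe 2.53 times. Since no member was detected in replicate 3, where they read 1 to 2.33 times the floor, the floor bounds these ratios and they do not rank the genes by how far they fell. For Lpl, Cd36, Fabp3 and Fabp4 replicate 3 was below each other array, which held for 14.3% of all probes. Lipe was above each other array there, as were 70.4% of all probes. Among the 38 probes detected on all 6 other arrays, 31 were lowest in replicate 3, among them Lpl, Cd36, Fabp3 and Fabp4. These 38 were picked by high signal on the arrays that replicate 3 is compared with, so the count leans towards a low replicate 3. Relative to the array median, all members but Lipe were lower in replicate 3 than on each other array, beside 30.5% of all probes. None was then higher there, beside 43.0%. With 1 such array there is no replicate check on these differences.

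Between the other 6 mice the members varied moderately. The SD of log2 signal was 0.18 for Lpl, 0.26 for Fabp3, 0.32 for Vldlr, 0.34 for Cd36 and 0.34 for Fabp4, and 0.46 for Lipe at the floor. Each probe's variance was set against limma's fitted trend over mean level by a one-sided F test. None of the 6 members passed after Benjamini-Hochberg adjustment over all probes. The adjusted p of this F test ran from 0.885 to 0.981 over 7 arrays and from 0.949 to 0.994 without replicate 3. Over all 223 probes the test called 0% with all arrays and 2.24% without replicate 3, and 17 and 22 probes had an unadjusted p under 0.05, none of them a member. The trend over 7 arrays includes the departure of replicate 3. A missed threshold does not show that the members were steady.

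Lpl, Cd36 and Fabp3 were higher in each of replicates 4 to 7 than in replicates 1 and 2, beside 30.0% of all probes, and no member was lower in each, beside 4.48%. Lpl carried 0.77% to 0.91% against 0.68% and 0.66%, Cd36 0.57% to 0.74% against 0.46% and 0.39%, and Fabp3 0.43% to 0.56% against 0.42% and 0.33%. Fabp4, Vldlr and Lipe overlapped between these arrays. The arrays fall apart in the same way by 28S rRNA, and the part of that split in the 3 genes was not tested. Relative to the array median no member was higher in each of replicates 4 to 7, beside 15.7% of all probes, and none was lower, beside 22.0%. The median itself was 0.08% to 0.13% in replicates 4 to 7 and 0.07% in replicates 1 and 2.

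Other genes of lipid metabolism were read alongside. Of 46 genes listed, 8 had a probe, of which 3 were detected on all 6 arrays other than replicate 3. Hadh and Acadl, dehydrogenases of mitochondrial beta-oxidation, carried 0.612% ± 0.137 and 0.498% ± 0.114, and Ucp3, a mitochondrial uncoupling protein of muscle, 0.265% ± 0.060 (SD, n = 6). Cpt1b, which admits fatty acids to mitochondria, and Acadm, the medium-chain dehydrogenase, were detected on 4 of 6 arrays each. Dgat1, which makes triglyceride, was detected on 1, and the nuclear receptors Ppara and Pparg on none. The median SD of log2 signal was 0.33 for the 6 members and 0.32 for these 8 probes. No probe of either list was detected in replicate 3.

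**Figure D3:**
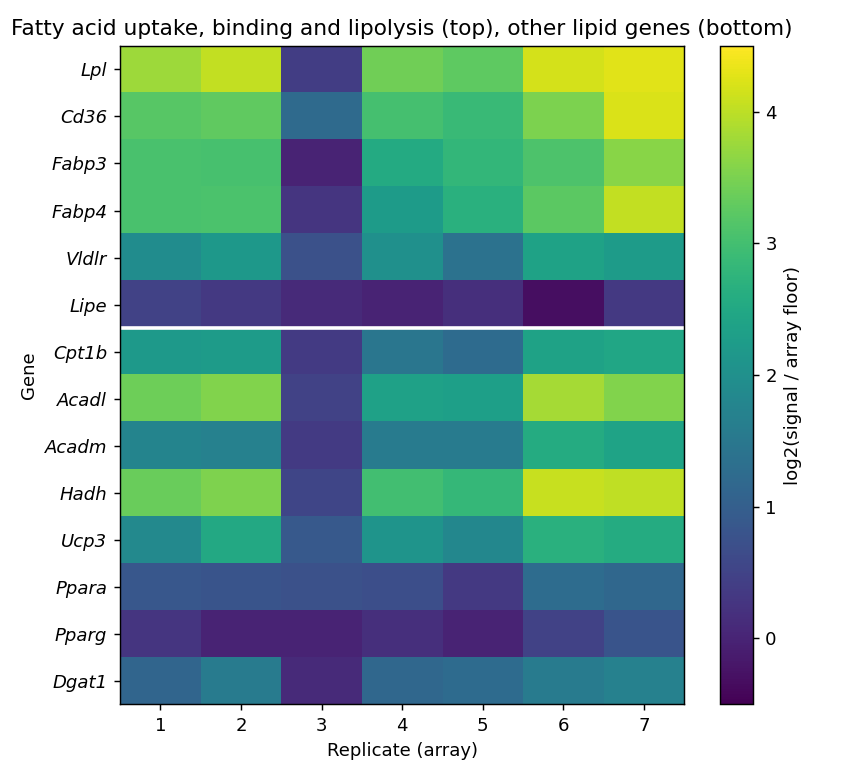
Colour gives log2 of signal over the array floor for the 6 members above the white line and the 8 other lipid genes below it, across replicates 1 to 7. Lpl, Cd36, Fabp3, Fabp4, Acadl and Hadh stand out on 6 arrays, Lipe and Pparg stay near 0 throughout, and the column of replicate 3 is dark.

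The next question was whether the members varied together. Because replicate 3 stands apart, correlations were computed over the other 6 arrays, on log2 signal, for all 15 pairs. Pearson's r was positive for 12 pairs, ran from -0.20 to 0.82 and averaged 0.37. After Benjamini-Hochberg adjustment over the 15 pairs none passed by exact two-sided permutation over the 720 pairings (smallest adjusted p = 0.417). For r no pair had an unadjusted permutation p under 0.05, and for Spearman's rho 1 had, that of Lpl and Vldlr.

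Lpl and Vldlr, which act together at the capillary wall, had the highest r, at 0.82 (exact permutation p = 0.0556, adjusted p = 0.417, n = 6). Their rho was 0.90 (exact permutation p = 0.0222, adjusted p = 0.333). Without replicates 2 and 6, those farthest from the median of Lpl, r was 0.81. As deviations from the mean within replicates 1 and 2 and within replicates 4 to 7, r was 0.74 (exact permutation p = 0.292). After centring on the array median r was 0.595 (exact permutation adjusted p = 0.429). The log2 ratio of both signals had an SD of 0.21, which follows from r and the spread of each probe and is no separate support.

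Cd36 and Fabp3 had r = 0.80 (exact permutation p = 0.0514, adjusted p = 0.417, n = 6) and rho = 0.83 (exact permutation p = 0.0583, adjusted p = 0.438). Without replicates 2 and 7, the extremes of Cd36, r was 0.52, and within the 28S parts it was 0.39 (exact permutation p = 0.479). Cd36 and Fabp4 had r = 0.74 (exact permutation p = 0.0875, adjusted p = 0.417) and rho = 0.66 (exact permutation p = 0.175, adjusted p = 0.656). Without both of the same replicates r was -0.07, on the few arrays left, and within the parts it was 0.59 (exact permutation p = 0.250). With only 1 array left out, r was 0.56 without replicate 2, 0.55 without replicate 7 and 0.99 without replicate 4. The binding proteins Fabp3 and Fabp4 had r = 0.68 (exact permutation p = 0.131, adjusted p = 0.417) and rho = 0.77 (exact permutation p = 0.103, adjusted p = 0.514). Without replicates 2 and 5, the extremes of Fabp3, r was 0.52, and within the parts 0.44 (exact permutation p = 0.479).

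Scaling changed these values. Centred on the array median over the 6 arrays, Fabp3 with Fabp4 (r = 0.93) and Cd36 with Fabp4 (r = 0.91) passed over the 15 pairs, both with exact permutation adjusted p = 0.0417. The same centring moved probes in general. Over the 703 pairs of the 38 detected probes, the median r was 0.02 on the deposited scale and 0.56 after centring. The array median lay near the floor, at 0.07% to 0.13%. For Lpl, Cd36, Fabp3 and Fabp4, the members detected on all 6 arrays, the mean r of their 6 pairs was 0.61 on the deposited scale and 0.78 after centring. Within the 28S parts it was -0.01, and Lpl had r between -0.54 and -0.39 with the other 3 there.

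**Figure D4:**
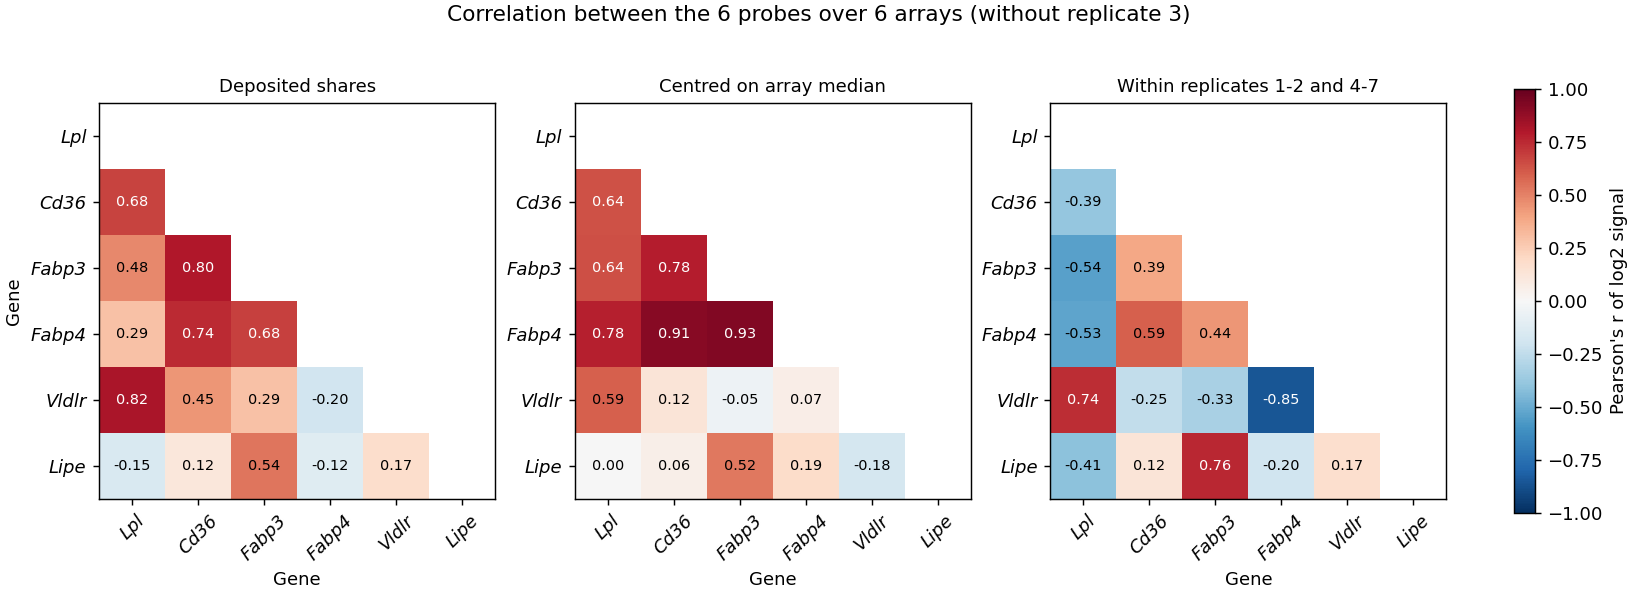
Pearson's r of log2 signal between members over 6 arrays without replicate 3, on deposited shares (left), after centring on the array median (middle) and as deviations within replicates 1 and 2 and within replicates 4 to 7 (right). Lpl with Vldlr is positive in each panel, whereas Lpl with Cd36, Fabp3 or Fabp4 turns negative on the right.

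The ratio of a pair of probes on one array is not changed by a common factor for that array, such as median-centring. Quantile normalization and floor subtraction do change it. The SD of the log2 ratio over the 6 arrays was 0.20 for Cd36 to Fabp3, 0.23 for Lpl to Fabp3, 0.24 for Cd36 to Fabp4, 0.25 for Fabp3 to Fabp4, 0.25 for Lpl to Cd36 and 0.33 for Lpl to Fabp4. The median of these 6 was 0.24, beside 0.53 over the 703 pairs of detected probes, whose 10th percentile was 0.265. Of the 6 pairs, 5 lay under that percentile. These pairs share 4 probes and so are not independent. The SD of a ratio also depends on the spread of each probe, for which the pairs were not matched. The SD of log2 signal was 0.18 to 0.34 for these 4 probes and 1.63 for 28S rRNA, which is among the 38. A low SD of the ratio therefore does not by itself show that the members varied together. Ratios in replicate 3 are not given, since none of these probes was detected there.

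The members were then set beside genes of slow fibres (Mb, Myh7), of mitochondrial fatty acid use (Cpt1b, Ucp3) and of endothelium (Pecam1). Of the 30 pairs none passed after Benjamini-Hochberg adjustment by exact permutation over 6 arrays (smallest adjusted p = 0.0833), and 4 had an unadjusted p under 0.05. The highest r was that of Vldlr and Pecam1, at 0.95 (exact permutation p = 0.00278, adjusted p = 0.0833, n = 6), with rho = 0.99 (exact permutation p = 0.00556, adjusted p = 0.167). Without replicates 4 and 6 it was 0.86 and within the 28S parts 0.95 (exact permutation p = 0.0208, adjusted p = 0.312). Pecam1 carried 0.10% to 0.45% on these arrays and was detected on 3 of them. After centring on the array median r was 0.02, and with quantile normalization it was -0.82.

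The other 3 pairs under that limit were Lpl with Ucp3 (r = 0.86, exact permutation p = 0.0278, adjusted p = 0.306), Vldlr with Ucp3 (r = 0.84, exact permutation p = 0.0306, adjusted p = 0.306) and Lpl with Pecam1 (r = 0.82, exact permutation p = 0.0417, adjusted p = 0.312). Their rho was 0.87, 0.90 and 0.93 in that order (exact permutation p = 0.0333, 0.0278 and 0.0167, each with adjusted p = 0.200). Without the 2 arrays farthest from the median of Lpl or Vldlr, r was 0.97, 0.56 and 0.94. Within the 28S parts Lpl with Ucp3 had r = 0.58, Vldlr with Ucp3 0.74 and Lpl with Pecam1 0.49. Lpl with Ucp3 had r = 0.59 after centring, 0.37 with quantile normalization and 0.05 over all 7 arrays. For Vldlr with Ucp3 these values were 0.41, 0.57 and 0.84. The direction of Lpl with Pecam1 turned with the scaling and the arrays, to r = -0.63 after centring, -0.58 with quantile normalization and -0.87 over all 7 arrays. Lpl and Cpt1b had r = 0.60 on the deposited scale (exact permutation p = 0.233, adjusted p = 0.792) and rho = 0.54 (exact permutation p = 0.267, adjusted p = 0.821), and r was -0.27 without replicates 2 and 6. After centring r was 0.97 (exact permutation adjusted p = 0.0417), the 1 pair of the 30 that passed there. Over all 7 arrays, replicate 3 included, 17 of the 30 passed after centring and 0 on the deposited scale. The rise from 1 to 17 came with that 1 array, where no member was detected, so the 17 do not show co-variation.

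**Figure D5:**
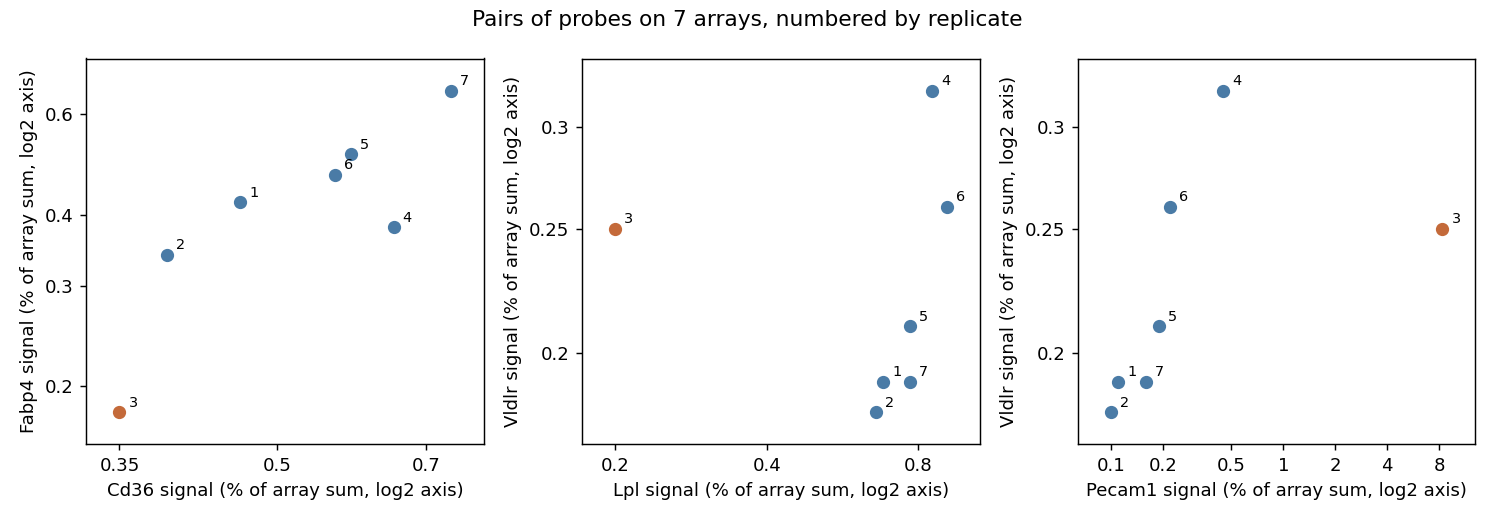
Signals in percent of the array sum on log2 axes for Fabp4 against Cd36, Vldlr against Lpl and Vldlr against Pecam1, with each point an array numbered by replicate and replicate 3 in orange. Replicate 3 lies at the low end of Fabp4 and Cd36, at the low end of Lpl, and at 8.36% far to the right for Pecam1.

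Likeness to the 32 other named probes detected on all 6 arrays was measured by Pearson's r over the 6 arrays and is a description. Fabp3 was most like Mdh2, mitochondrial malate dehydrogenase (r = 0.94), Aldoc, an aldolase (0.91), and Slc2a4, the insulin-regulated glucose transporter of muscle (0.91). Mdh2 and Slc2a4 also led for Fabp3 after centring on the array median, at 0.995 and 0.93. Cd36 was most like Aldoc (0.92), 28S rRNA (0.86) and Slc2a4 (0.85), which were 0.72, 0.008 and 0.84 after centring. Fabp4 was most like Mdh2 (0.82), Mb (0.80) and Cox4i1, a subunit of cytochrome c oxidase (0.79), which were 0.93, 0.87 and 0.85 after centring. Lpl was most like the IGF-binding protein gene Igfbp6 (0.94), Hadh (0.93) and the growth factor gene Igf2 (0.92), of which only Hadh kept a positive value after centring, at 0.90. Vldlr was most like Igfbp6 (0.90), Eno2, an enolase (0.89), and Pole2, a subunit of a DNA polymerase (0.86), and these were 0.05, 0.72 and 0.38 after centring. Lipe, which was at the floor, reached at most 0.46 on the deposited scale, with Mdh2, and 0.64 after centring, with Cox5b, a cytochrome c oxidase subunit.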

How the data were processed

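Per the labels' protocols, 4 µg of total RNA per muscle was reverse transcribed with gene-specific primers and a radioactive nucleotide and hybridised to a 1-channel array. The deposited intensity values are linear. Without the 28S rRNA probe and 1 unnamed probe they sum to between 99.8% and 100.02% per array, so they are shares of the array sum. The sources used here do not give the software or how background was treated. No value was missing or 0. The number of arrays limits the precision.

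Probes were named through the supplied platform annotation (205 of 223 with a symbol), and all 6 members matched RefSeq. Log2 values were used without further scaling. A trend of variance over mean level was fitted with limma 3.58.1 in R 4.3.3 (intercept only, robust trend). Each probe's variance was tested against that trend by a one-sided F test, with threshold 0.05. A probe that did not pass can still vary more than the trend. Correlations used exact two-sided permutation of arrays, as the share of pairings with at least the observed absolute value. The smallest possible p was 0.0014 for 6 arrays and 0.021 within the 28S parts. The members, gene lists and criteria were chosen with earlier results of these data known. Named genes are the members, the anchors, all listed lipid genes with a probe and, per member, the 3 most alike probes. Alternatives were median-centring, quantile normalization, a pseudocount of 0.05%, floor subtraction, a filter at the 25th percentile, other floors, a fit without trend, leaving out each replicate, all 7 arrays, deviations within the 28S parts and, added after the data were seen, replicates 1 and 2 averaged and all 7 arrays with median-centring.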

Additional observations from a re-analysis of the deposited data

Results flagged for a closer look

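Among the 6 members, the gap between 1 array and the nearest other, divided by the range over 7 arrays, was above Dixon's 95% critical value for 7 samples in 2 cases. Lpl was lowest in replicate 3, with 0.648, and Lipe was highest there, with 0.583. Chance flags about 1 in 20 such groups. Both flags fall on replicate 3 and so are not independent. On that array 14.3% of all probes were below each other array and 70.4% were above. The share of all probes that this rule would flag was not computed, so the flags are not read as particular to Lpl and Lipe. For Lipe the reading lay at the floor of that array, 0.16% over a floor of 0.15%.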

How the results depend on the processing

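No paired analysis was possible because all arrays belong to 1 group. None of the 6 members passed the F test of variance under any alternative. No member was detected on all 7 arrays, and 1 was at 2 times the floor. Leaving out 1 array gave 0 to 4 members, the 4 without replicate 3. On the 6 other arrays the count of 4 became 5 without replicate 5. Of the 15 member pairs, 0 passed over 6 arrays, 2 after median-centring, 4 over all 7 arrays and 6 over all 7 after median-centring, a setting added after the data were seen. Of the 30 pairs with anchor genes 0 passed over 6 arrays or all 7, 1 after median-centring and 17 over all 7 after median-centring. Counts over all 7 arrays include replicate 3, where no member was detected, and do not show co-variation. The mean r of the 15 pairs was 0.37, with 0.17 over all 7 arrays and 0.51 over all 7 after median-centring, -0.019 within the 28S parts, and 0.11 to 0.49 when 1 array was left out, the lowest without replicate 2. For Lpl, Cd36, Fabp3 and Fabp4 it was 0.61, with 0.78 after median-centring, 0.36 after quantile normalization, 0.85 over all 7 arrays and 0.96 over all 7 after median-centring, -0.005 within the 28S parts, and 0.30 without replicate 2 to 0.70 without replicate 4. With replicates 1 and 2 averaged the mean r was 0.25 and 0.47 for the 2 sets. Over all 7 arrays Lpl with Vldlr had r = -0.05. Lpl with Pecam1 had -0.63 after median-centring, -0.58 after quantile normalization, -0.87 over all 7 arrays and -0.98 over all 7 after median-centring, and Vldlr with Pecam1 had -0.82 after quantile normalization and -0.85 over all 7 after median-centring. The causes were not tested. After floor subtraction the means of Vldlr and Lipe were 0.159% and 0.0071%, and Lipe then had no log2 value on some arrays, so only 10 pairs could be correlated. Signal over background limits every statement on Lipe and on replicate 3.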
